A study of Mus musculus with 12 samples.

Results

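The 10 genes described here act in the path by which liver cells take in, carry and activate long-chain fatty acids. The rule lists them by name and uses no measured value: Cd36, Fabp1, Fabp2, Fabp5, Slc27a1, Slc27a2, Slc27a4, Lpl, Vldlr and Acsl1, out of 50559 genes listed in the count tables. The members were chosen with earlier results of these data known, so their counts beside the share over all genes are a description only. All 10 were found, and all 10 passed the filter on low counts in each comparison. The RNA came from liver of C57BL/6N mice, with 4 groups and 3 libraries in each. The NCD group ate normal chow, the HFD group ate a high-fat diet that supplied 60% of its energy as fat, and both diets lasted 12 weeks. The HFD+C1 and HFD+C2 groups ate the same high-fat diet and received compound C1 or C2 intraperitoneally at 5 mg/kg per day for the 12 weeks. The series title calls both compounds inhibitors of CYP4A, a family of cytochrome P450 enzymes. The labels give no structure for either compound, no sex or age, and no vehicle for the groups without a compound. Libraries are labelled as biological replicates, and the labels do not say whether 1 library is 1 animal.

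As background, most fatty acids reach the liver as albumin-bound free acids from adipose tissue and as triglyceride in lipoproteins. Lipoprotein lipase (Lpl) frees fatty acids from lipoprotein triglyceride, and the VLDL receptor (Vldlr) binds triglyceride-rich particles. Cd36, a membrane glycoprotein, and the transport proteins Slc27a1, Slc27a2 and Slc27a4 promote uptake at the cell surface, and the Slc27a proteins also have acyl-CoA synthetase activity. Inside the cell, Fabp1 is the abundant fatty acid binding protein of hepatocytes, Fabp2 is the intestinal form, and Fabp5 is found in skin, macrophages and endothelium. Acsl1 joins the fatty acid to coenzyme A, which commits it to oxidation or to storage as triglyceride. In textbook accounts Cd36 is low in normal mouse liver and higher in fatty liver, and Fabp1 and Cd36 are among the genes on which the nuclear receptors PPARA and PPARG act.

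The sequence upstream of 3 of the genes is shown: Cd36 and Fabp2, the members called between NCD and HFD, and Fabp1, the most abundant member. The windows come from RefSeq (GRCm38.p6), matched by symbol for 8 of the 10 members, with none found for Fabp5 and Lpl. Each line holds the 250 bases before a start site, 5′ to 3′ on the gene's strand, and capitals mark AGGTCA, read on either strand, and a pair of AGGNCA units set head to tail with 1 base between them. The Fabp1 window is chr6:71199629-71199878 on the plus strand. The Cd36 window is chr5:17835897-17836146 on the minus strand, and the Fabp2 window is chr3:122894822-122895071 on the plus strand.
Fabp1: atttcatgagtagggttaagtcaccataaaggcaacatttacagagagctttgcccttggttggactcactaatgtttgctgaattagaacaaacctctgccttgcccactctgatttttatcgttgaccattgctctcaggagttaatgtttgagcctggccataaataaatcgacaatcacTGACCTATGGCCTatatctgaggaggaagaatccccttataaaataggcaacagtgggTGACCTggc
Cd36: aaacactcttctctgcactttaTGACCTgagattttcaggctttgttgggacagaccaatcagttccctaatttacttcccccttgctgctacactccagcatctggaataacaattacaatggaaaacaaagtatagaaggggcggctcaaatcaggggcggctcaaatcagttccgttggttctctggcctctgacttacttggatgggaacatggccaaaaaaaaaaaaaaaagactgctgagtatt
Fabp2: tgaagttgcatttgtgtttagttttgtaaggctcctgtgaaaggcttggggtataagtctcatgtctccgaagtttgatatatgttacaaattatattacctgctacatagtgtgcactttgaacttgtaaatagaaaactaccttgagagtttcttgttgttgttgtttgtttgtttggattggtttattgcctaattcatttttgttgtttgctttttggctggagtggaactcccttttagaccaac
Nuclear receptors of the PPAR type are known to bind pairs of AGGTCA-like units that lie 1 base apart. The pair of AGGNCA units, where N is any base, was found for Fabp1 alone among the 8 members with a window, as TGACCTATGGCCT on the minus strand with its first base at -67 from the start site. It occurs in 0.381% of all 32851 windows, which were searched on both strands together with the 50 bases after the start. Its first 6 bases are also counted as AGGTCA, and a further AGGTCA on the minus strand begins at -9. Cd36 holds 1 AGGTCA at -228 and Slc27a2 holds 1 at -220, and 16.255% of all windows hold at least 1. Head-to-tail pairs of the exact AGGTCA, with 1 or with 4 bases between the units, were found in 0 member windows and in 0.040% and 0.015% of all windows. TATAAA begins at -30 in Fabp1, in lower case above, and is in 13.616% of all windows. These letter matches are a description of the sequence and not evidence of binding.

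In the annotation of the same build (GENCODE M21, GRCm38) the 10 genes are protein coding and lie on 6 chromosomes. Fabp1 spans chr6:71199827-71205023 on the plus strand, so the annotated gene begins inside the window shown. Fabp2 (chr3:122895072-122899506) and Fabp5 (chr3:10012548-10016607) lie on the plus strand of the same chromosome. Cd36 spans chr5:17781690-17888801 on the minus strand, and the window shown belongs to 1 start site inside that span. Slc27a2 (chr2:126552407-126588243), Slc27a4 (chr2:29802634-29817522), Slc27a1 (chr8:71568882-71587302), Lpl (chr8:68880491-68907448), Acsl1 (chr8:46471037-46536051) and Vldlr (chr19:27216484-27254231) are all on the plus strand.

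Depth and 2 libraries bear on the values. Reads counted in genes ranged from 4281210 to 23147418 in NCD and from 18858230 to 32124248 in the other groups. NCD replicate 1 and HFD+C2 replicate 1 stood apart: 58.2% and 47.1% of their reads fell outside the gene counts, where the remaining 10 libraries had 27.3% to 40.7%. Their log2 values, taken over genes, correlated at 0.921 to 0.954 with their group mates, against 0.979 for the other NCD pair and 0.988 for the other HFD+C2 pair. The summed level of 5 hepatocyte markers was 26660 CPM (reads scaled to the total in genes of each library, with TMM factors over the 12 libraries) in NCD replicate 1, and 67967 and 71544 CPM in the other NCD libraries. It was 85433 to 101841 CPM in HFD, 96564 to 105446 CPM in HFD+C1 and 76971 to 143982 CPM in HFD+C2. Most of this sum is Alb, and the 5 markers did not move together: between NCD and HFD, Alb and Hnf4a were higher in every HFD library, Tat was lower in every one (437 to 634 against 744 to 1050.0 CPM), and Apoa1 and Ttr overlapped. NCD replicate 3 held 4 muscle markers at a summed 68.3 CPM, with Acta1 at 33.9 CPM, where no other library passed 0.766 CPM. The 5 adipocyte markers summed to 4.86 to 11.1 CPM over the 12 libraries. Of these, Adipoq was at 0 in 7 libraries and never above 0.114 CPM, while Lipe (3.52 to 10.2 CPM) and Adrb3 (0.255 to 1.69 CPM) were at 0 in none. Bulk libraries cannot tell fewer cells of a type from less RNA per cell.

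**Figure D1:**
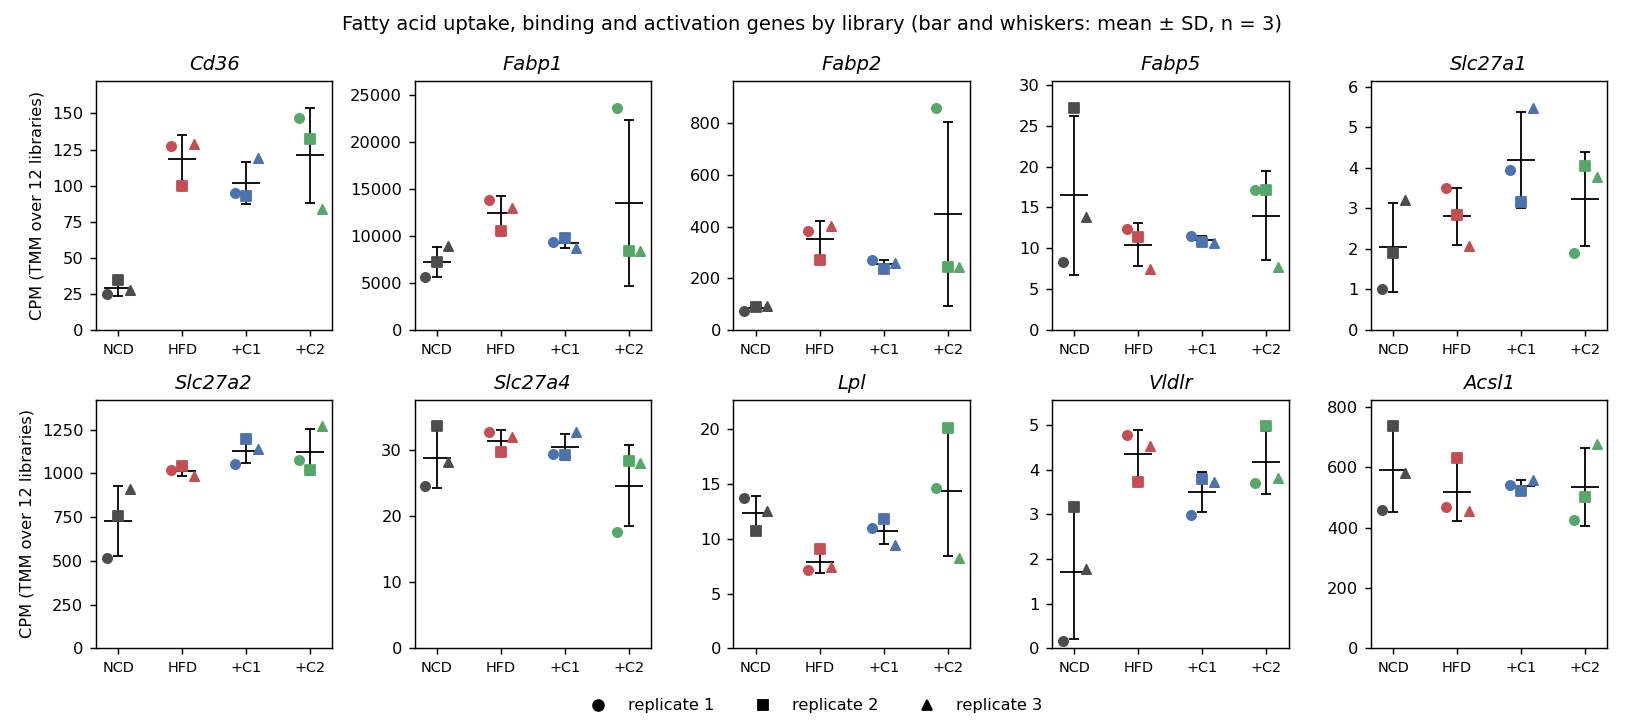
Level of each of the 10 genes in CPM on a linear axis from 0, by group, with 1 point per library (circle, square and triangle for replicates 1, 2 and 3) and the mean ± SD of n = 3. Cd36 and Fabp2 lie higher in all 9 high-fat libraries than in any NCD library, and HFD+C2 replicate 1 lies far above its group for Fabp1 and Fabp2.

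The 10 genes spanned a wide range of levels when compared per length. On the CPM per kilobase scale, over each gene's merged exons, Fabp1 was the highest in every group, with means from 13116 in NCD to 24448 in HFD+C2. It alone held 0.677% to 2.05% of all reads in genes in a library. Slc27a2 followed at 194 in NCD, 271 in HFD, 301 in HFD+C1 and 299 in HFD+C2. Fabp2 was below Slc27a2 in NCD (89.1) and HFD+C1 (265) and above it in HFD (363), with no overlap of libraries in these groups. In HFD+C2 the 2 genes overlapped. Acsl1 came next at 49.5 to 56.5, then Cd36 at 8.06 in NCD and 28.4 to 33.7 in the high-fat groups. Slc27a4 (5.57 to 7.11) and Fabp5 (2.92 to 4.61) came lower, with overlap between these neighbours in NCD and HFD+C2. Cd36 also overlapped Slc27a4 in NCD and Acsl1 in HFD+C2. Lpl stood at 0.754 to 1.37 and overlapped Slc27a1 in HFD+C1. The lowest were Slc27a1 (0.350 to 0.719) and Vldlr (0.169 to 0.431), whose libraries overlapped in every group but HFD+C1. Merged exons came to 553 bases for Fabp1, 3567 for Fabp5, 10068 for Vldlr, 10478 for Lpl and 10483 for Acsl1. A gene whose transcripts in liver are shorter than its merged exons reads too low on this scale. The order of the genes thus depends on these lengths, and transcript lengths were not tested.

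The first comparison asked what the high-fat diet changed. Cd36 and Fabp2 rose about 4-fold, and they were the only members to pass the threshold, an adjusted p under 0.05 in the quasi-likelihood test of the edgeR package, corrected after Benjamini and Hochberg over all 13864 genes tested. The other 8 did not pass. That is 2 of 10 members, both higher, where 6.03% of all genes tested were called in either direction and 2.59% were called higher.

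Cd36, the surface fatty acid transporter, was at 24.7, 34.6 and 27.4 CPM in NCD replicates 1 to 3. In HFD replicates 1 to 3 it was at 128, 99.6 and 129 CPM. The lowest HFD library was thus well above the highest NCD library. The means were 28.9 ± 5.08 and 119 ± 16.5 CPM (SD, n = 3), and the log2 change was 2.06 ± 0.21 (SE, edgeR adjusted p 0.00431), or 4.16-fold with a 95% interval from 3.00 to 5.77. Leaving out any 1 of the 6 libraries kept the Cd36 call, with log2 changes from 1.96 to 2.22.

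Fabp2, the intestinal-type binding protein, was at 74.7, 89.6 and 93.5 CPM in NCD and at 381, 269 and 401 CPM in HFD. Again the groups were far apart, and the lowest HFD library was replicate 2 for both genes. The means were 85.9 ± 9.89 and 350.4 ± 71.0 CPM (SD, n = 3), and the log2 change was 2.04 ± 0.22 (SE, edgeR adjusted p 0.00431), or 4.12-fold with an interval from 2.92 to 5.80. Without HFD replicate 1 the change was 1.99 and the edgeR adjusted p 0.0503. In that fit the number of genes called over the whole table fell from 836 to 23. The intestinal epithelium markers Alpi and Cdx1 were at 0 in all 12 libraries. The 5 markers of that list summed to 12.8, 1.05 and 1.52 CPM in NCD replicates 1 to 3 and to 0.0407 to 0.248 CPM in HFD. Their part in the Fabp2 result was not tested.

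Fabp1, the main hepatocyte binding protein, was at 5672, 7193 and 8893 CPM in NCD and at 13889.7, 10507 and 13039 CPM in HFD. The groups did not overlap. Its log2 change was 0.80 ± 0.25 (SE, edgeR adjusted p 0.0851), so it missed the threshold. It passed in DESeq2 (0.83, adjusted p 0.0044), in limma voom with library weights (0.73, adjusted p 0.00448) and in edgeR without NCD replicate 1 (0.64, adjusted p 0.0324). Those fits called 3222, 3211 and 1838 genes over the whole table, against 836 in the main fit. NCD replicate 1, the library low in hepatocyte markers, had the lowest Fabp1 level of the 12. Its part in the result was not tested beyond the fit without it. The hepatocyte marker Alb, at 10662 to 45156 CPM in NCD and 54077 to 72925 CPM in HFD, did not overlap either, while Tat was lower in HFD; their part in the members' values was not tested.

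Among the transport proteins, Slc27a2, the main very-long-chain form in liver, was at 515, 757 and 914 CPM in NCD and at 1017, 1045 and 986 CPM in HFD. The groups did not overlap, and the log2 change of 0.49 (standard error 0.23) had an edgeR adjusted p of 0.199. Slc27a1, best known from muscle and fat, was at 1.02, 1.90 and 3.20 CPM in NCD and 3.49, 2.84 and 2.08 CPM in HFD, which overlap. Its log2 change was 0.43 ± 0.45 (SE, edgeR adjusted p 0.552). With 1 library left out it ran from 0.016 to 1.05, highest without NCD replicate 3, and was not called. Within NCD its highest level was in replicate 3, the library with muscle markers, as it was for Slc27a2 and Fabp1. The part of muscle transcripts in these levels was not tested. Slc27a4 was at 24.6 to 33.5 CPM in NCD and 29.6 to 32.6 CPM in HFD, with a log2 change of 0.15 and an interval from -0.26 to 0.55. Its sign turned with plain scaling by the library total (-0.07), which moved the median of all genes to -0.24.

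Lpl and Vldlr, the lipase and the lipoprotein receptor, had opposite signs. Lpl was at 13.8, 10.8 and 12.6 CPM in NCD and at 7.15, 9.11 and 7.45 CPM in HFD, lower in every HFD library. Its log2 change was -0.64 ± 0.20 (SE, edgeR adjusted p 0.0859), and of the alternatives run only limma voom with library weights called it (-0.67, adjusted p 0.0125). Vldlr was at 0.170, 3.16 and 1.77 CPM in NCD and at 4.79, 3.72 and 4.52 CPM in HFD. The groups did not overlap, but NCD replicate 1 held 2 reads, under the floor of 3, and the log2 change was 1.51 ± 0.66 (SE, edgeR adjusted p 0.171). Without that library the change was 1.00. Vldlr was called without a filter on low counts (1.65) and by limma voom with library weights (1.37). These settings called 4493 and 3211 genes over the whole table, against 836 in the main fit.

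Fabp5 and Acsl1 were the remaining members. Fabp5, the epidermal-type binding protein, was at 8.33, 27.2 and 13.8 CPM in NCD and at 12.4, 11.4 and 7.45 CPM in HFD. NCD replicate 2, the shallowest library, set the upper end, and the log2 change of -0.60 (edgeR adjusted p 0.344) was -0.07 without it. Without NCD replicate 1 it was called (-0.90, edgeR adjusted p 0.0440), in a fit that called 1838 genes over the whole table. Acsl1, the main long-chain acyl-CoA synthetase of liver, was at 459, 737 and 582 CPM in NCD and at 469.8, 632 and 456 CPM in HFD. These overlap, with a log2 change of -0.18 and a 95% interval from -0.72 to 0.36.

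Taking the list together, 6 of the 10 did not overlap between NCD and HFD, 5 higher and 1 lower. Over all genes tested the groups did not overlap for 37.1%, 18.4% higher and 18.7% lower. At an unadjusted p under 0.05 there were 5 of 10 members, where 28.9% of all genes reached it. The median log2 change was 0.46 for the members and -0.02 for all genes, with members running from -0.64 to 2.06.

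**Figure D2:**
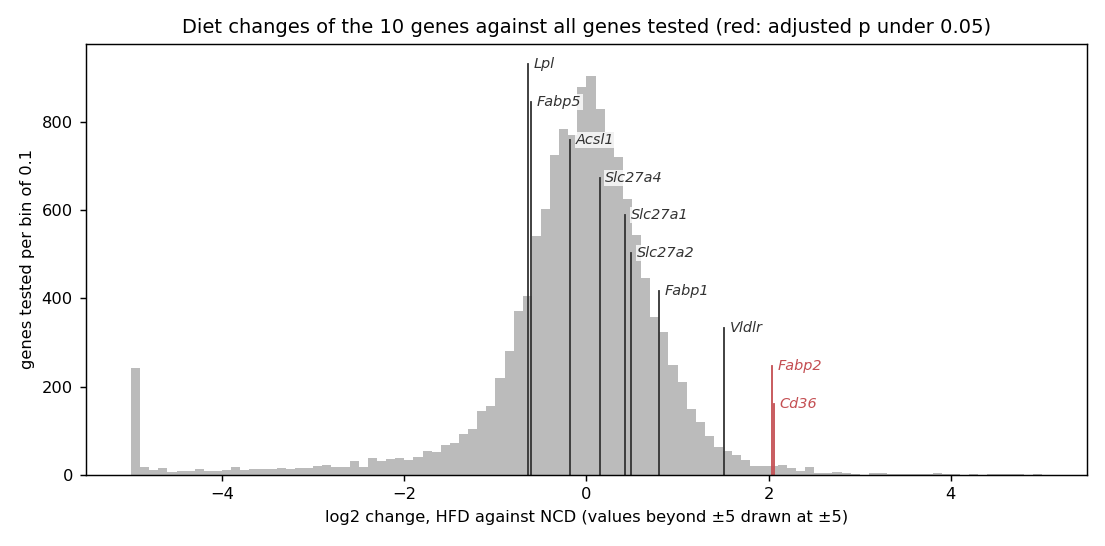
Histogram of the log2 change between HFD and NCD for all 13864 genes tested, in bins of 0.1, with values beyond 5 in either direction drawn at the edge and the 10 members marked by lines. Cd36 (2.06) and Fabp2 (2.04), in red, lie in the right tail, and the 3 members below 0 are Lpl, Fabp5 and Acsl1.

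The next comparison asked what C1 changed in mice on the high-fat diet. No member passed: edgeR called 0 of 10 after adjustment over 13358 genes, where 0.0524% of all genes were called. At an unadjusted p under 0.05 there were 4 of 10, Fabp1, Fabp2, Lpl and Slc27a1, where 7.75% of all genes reached it. Groups did not overlap for 3 of 10, Fabp1, Lpl and Slc27a2, where the share over all genes was 12.3%. The median log2 change was 0.00 for the members and 0.01 for all genes, with 5 members positive and 5 negative.

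Of the 3 binding proteins, Fabp1 and Fabp2 had lower means under C1 than in HFD, and Fabp5 a slightly higher one. Fabp1 was at 9328, 9750.1 and 8708 CPM in HFD+C1 and at 10507 to 13889.7 CPM in HFD. Every HFD+C1 library lay under every HFD library, with a log2 change of -0.43 ± 0.14 (SE) and a 95% interval from -0.73 to -0.14 (edgeR unadjusted p 0.0077, adjusted p 0.417). It was called when no filter on low counts was used (-0.43, edgeR adjusted p 0.0457), a setting that called 206 genes over the whole table against 7. Fabp2 was at 269.8, 237 and 259.5 CPM in HFD+C1 and at 269 to 401 CPM in HFD. The groups touched at HFD replicate 2, and the log2 change was -0.46 ± 0.15 (SE, edgeR adjusted p 0.428). Without HFD replicate 2 it was -0.62 with an adjusted p of 0.0198, and that fit called 102 genes over the whole table against 7 with all libraries. Fabp5 was at 10.6 to 11.5 CPM, within the HFD range.

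Cd36 was at 94.7, 92.8 and 119 CPM under C1, overlapping the HFD range of 99.6 to 129 CPM. Its log2 change was -0.22 with a 95% interval from -0.52 to 0.08 (edgeR adjusted p 0.787). Lpl was at 11.0, 11.9 and 9.42 CPM under C1, above all 3 HFD libraries, with a log2 change of 0.45 ± 0.16 (SE, adjusted p 0.462). Slc27a1 was at 3.94, 3.16 and 5.48 CPM, with a log2 change of 0.57 (edgeR adjusted p 0.637) that ran from 0.34 to 0.76 with 1 library left out. Slc27a2 was at 1056 to 1199.8 CPM and just above the HFD range of 986 to 1045 CPM, with a log2 change of 0.15. The 3 members not yet given, Slc27a4, Vldlr and Acsl1, had log2 changes of -0.05, -0.32 and 0.06. Summed macrophage markers were 234 to 306 CPM in HFD+C1 and 143 to 189 CPM in HFD, and their part in these differences was not tested.

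**Figure D3:**
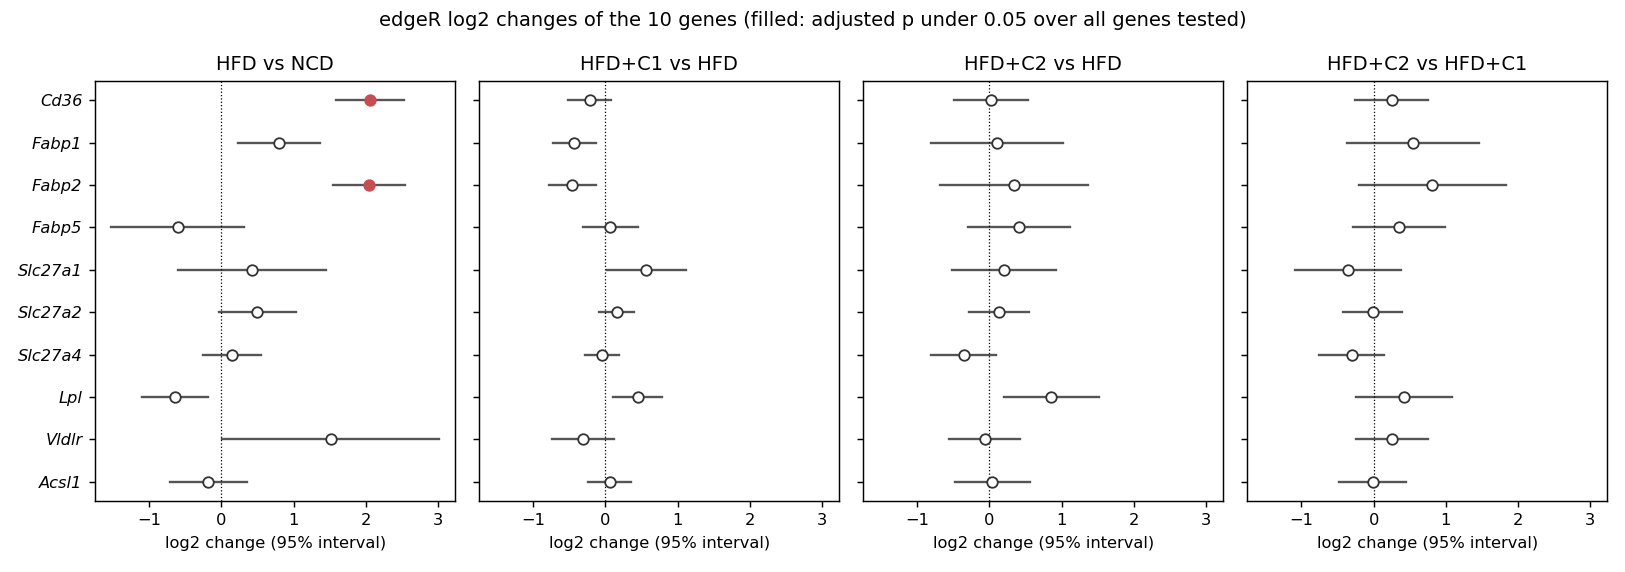
Log2 change of each of the 10 genes (points) with its 95% interval (lines) in 4 comparisons from edgeR, with filled points at an adjusted p under 0.05 over all genes tested. Only Cd36 and Fabp2 between HFD and NCD are filled, and the intervals for Fabp1 and Fabp2 are wider under C2 than under C1.

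The same question was asked of C2. edgeR called 0 of 10 members after adjustment over 13503 genes, where 0.0222% of all genes were called. At an unadjusted p under 0.05 there was 1 of 10, Lpl, where 6.89% of all genes reached it. Groups did not overlap for 1 of 10, Slc27a4, against 13.6% of all genes. The median log2 change was 0.12 for the members and 0.02 for all genes.

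Fabp1 and Fabp2 in this group were set by 1 library. Fabp1 reached 23689.8 CPM in HFD+C2 replicate 1, where replicates 2 and 3 had 8406 and 8463 CPM. Fabp2 followed the same order at 859.9, 243 and 244 CPM. Replicate 1 was above every HFD library for both genes, and replicates 2 and 3 were below every one. The log2 changes were 0.10 for Fabp1 (interval -0.81 to 1.02) and 0.34 for Fabp2 (interval -0.68 to 1.37). Without HFD+C2 replicate 1 they were -0.57 and -0.53, with edgeR adjusted p of 0.287 and 0.340. That library is the one with 47.1% of its reads outside the gene counts, and Dbi, another acyl-CoA binding protein, was at 1834 CPM there against 598 and 509 CPM in its group mates. Whether the library's quality bears on these levels was not tested.

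Cd36 was at 147, 132 and 83.8 CPM under C2, on both sides of the HFD range. Its log2 change was 0.02 with a 95% interval from -0.50 to 0.53 (edgeR adjusted p 0.986). Lpl was at 14.6, 20.2 and 8.30 CPM, with replicate 3 inside the HFD range of 7.15 to 9.11 CPM. The log2 change was 0.85 ± 0.29 (SE, edgeR unadjusted p 0.0162, adjusted p 0.695), and 0.52 to 1.14 with 1 library left out. It was called only with no filter (0.85, edgeR adjusted p 0.0265), a setting that called 152 genes over the whole table against 3. Summed macrophage markers were 186 to 418 CPM in HFD+C2. Slc27a4 was at 17.5, 28.2 and 27.9 CPM, all under the lowest HFD library at 29.6 CPM, with a log2 change of -0.36 and an adjusted p of 0.696; without replicate 1 it was -0.16. Fabp5, Slc27a1, Slc27a2, Vldlr and Acsl1 had log2 changes of 0.41, 0.20, 0.13, -0.07 and 0.04, with 0 of the 5 called.

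**Figure D4:**
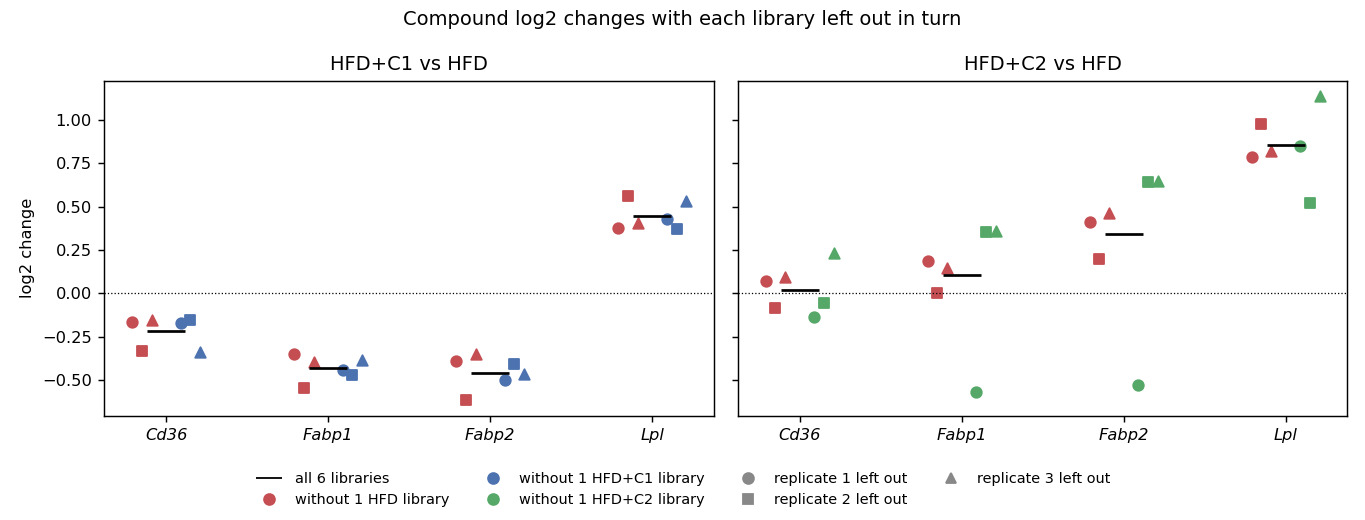
Log2 change of Cd36, Fabp1, Fabp2 and Lpl under C1 (left) and C2 (right) with all 6 libraries (bars) and with each library left out in turn (points, coloured by the group that lost a library). Under C2, leaving out HFD+C2 replicate 1 moved Fabp1 to -0.57 and Fabp2 to -0.53, while under C1 no point crossed 0 for these 4 genes.

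C1 and C2 were given at the same dose for the same time, so they were also compared directly, as the single pair of compounds. edgeR called 0 of 10 members after adjustment over 13229 genes, where 0% of all genes were called. At an unadjusted p under 0.05 there were 0 of 10, where 4.6% of all genes reached it. Groups did not overlap for 1 of 10, Slc27a4 (-0.30), against 12% of all genes. Lpl, at 9.42 to 11.9 CPM under C1 and 8.30 to 20.2 CPM under C2, differed by 0.42 (interval -0.24 to 1.08). With 1 library left out Slc27a4 ran from -0.42 to -0.11 and Lpl from 0.087 to 0.70. Fabp2 differed by 0.82 with an interval from -0.21 to 1.84, and Fabp1 by 0.55 with an interval from -0.37 to 1.46. Without HFD+C2 replicate 1 these became -0.07 and -0.14. Cd36 differed by 0.25, with an interval from -0.26 to 0.76. The intervals are wide, and the absence of a call does not show that the compounds act alike on these genes.

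Each compound group was also set beside NCD. Under C1, edgeR called 2 of 10 members over 13534 genes, both higher, where 3.4% of all genes were called and 1.47% were called higher. These were Cd36 (log2 change 1.83, standard error 0.20, adjusted p 0.00736) and Fabp2 (1.57, standard error 0.17, adjusted p 0.00736). Both lost the call without HFD+C1 replicate 1 (1.89 and 1.54) or replicate 3 (1.71 and 1.57). Each of those fits called 11 genes over the whole table, against 460 with all libraries. Under C2, 1 of 10 was called over 13691 genes, Cd36, where 1.6% of all genes were called and 0.533% were called higher. Cd36 had a log2 change of 2.09 (standard error 0.28, edgeR adjusted p 0.0206). It lost its call without NCD replicate 3 (2.05) or without HFD+C2 replicate 1, 2 or 3 (1.93, 2.04 and 2.29). Those fits called 2, 11, 2 and 3 genes over the whole table, in that order, against 219 with all libraries. Fabp2 was higher by 2.41 ± 0.51 on the log2 scale (SE, adjusted p 0.0546, not called) and was 1.52 without HFD+C2 replicate 1. It passed in 6 of 9 other settings, with log2 changes over the 9 from 1.61 to 2.52, and in 0 of the 6 fits that left out a library. These comparisons share their NCD libraries with the diet comparison, so the values are given side by side and not as independent support. For Cd36 they were 2.06, 1.83 and 2.09 in HFD, HFD+C1 and HFD+C2, and for Fabp2 2.04, 1.57 and 2.41.

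Of 40 further genes of fatty acid uptake, binding, lipolysis and their regulation, 36 were tested for the diet. edgeR called 9, with 6 higher and 3 lower, where 6.03% of all genes were called, 2.59% higher and 3.44% lower. The median log2 change was 0.24. Mfsd2a, a transporter of lysophospholipids, was at 7.06, 4.64 and 3.53 CPM in NCD and at 69.2, 46.5 and 62.4 CPM in HFD. This was the largest rise of the called genes, 3.57 ± 0.30 on the log2 scale (SE, adjusted p 0.0024), and it was called in all 6 fits that left out 1 library.

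The other calls came from 4 of the lists. Around the lipase, Angptl8, a secreted inhibitor of lipoprotein lipase, rose by 1.46, Lmf1, which helps lipases to fold, by 1.08 and Gpihbp1, which anchors Lpl to the capillary wall, by 0.91. These 3 were among 10 tested lipase genes, and 0 of the 10 were called lower, with 3 of the 10 below 0 in log2 change. Of the 7 listed transcription factors, Ppara rose by 1.13 (44.9 to 97.1 CPM) and Pparg by 0.94 (12.6 to 23.9 CPM). The third PPAR, Ppard, was not called but was lower in every HFD library, with a log2 change of -1.34 (edgeR adjusted p 0.0638). Of 3 further long-chain acyl-CoA synthetases tested, 2 were called: Acsl4, an arachidonate-preferring synthetase, fell by 2.25 on the log2 scale and Acsl3, a lipid droplet synthetase, fell by 0.82, while Acsl5 (-0.30, adjusted p 0.287) did not pass. Slc27a5, the bile acid-CoA ligase and fatty acid transporter of liver and the 1 further transport protein tested, fell by 1.18. Acsl4 had 171, 52.9 and 56.1 CPM in the 3 NCD libraries, highest in replicate 1, and its change without replicate 1 was -1.48. Each of these 8 lost its call in every fit that left out an HFD library, where 23, 131 and 25 genes were called over the whole table without HFD replicates 1, 2 and 3. Gpihbp1 (0.70), Ppara (0.92) and Pparg (0.73) also missed the threshold with plain scaling by the library total. Without NCD replicate 3, Acsl3 (-0.84), Gpihbp1 (0.96), Ppara (1.08) and Pparg (1.08) lost the call as well. Over the 9 settings that kept all libraries, Gpihbp1 was called in 5, Acsl3 and Pparg in 7, Ppara and Lmf1 in 8, and Angptl8, Acsl4 and Slc27a5 in 9.

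Under C1 or C2 against HFD, and between the compounds, edgeR called 0 of 35 related genes tested, with 3, 5 and 2 at an unadjusted p under 0.05. Of all genes 7.75%, 6.89% and 4.6% reached that unadjusted p, and 0.0524%, 0.0222% and 0% were called. Mfsd2a had the smallest p under C2: it was at 17.6, 27.5 and 32.8 CPM, below every HFD library, with a log2 change of -1.20 (unadjusted p 0.000817, adjusted p 0.625). Against NCD, 4 of 36 were called under C1: Mfsd2a higher (3.19), and Acsl4 (-2.20), Ppard (-1.51) and Dbi (-0.95) lower. Of all genes 3.4% were called there, 1.47% higher and 1.93% lower. Under C2 Mfsd2a alone was called (2.38), where 1.6% of all genes were called and 0.533% were called higher. Of these 5 calls, each was lost in at least 3 of the 6 fits that left out 1 library. Fits against NCD without HFD+C1 replicates 1, 2 and 3 called 11, 49 and 11 genes over the whole table. Those without HFD+C2 replicates 1, 2 and 3 called 11, 2 and 3. Fabp3, the muscle-type binding protein, was at 3.33 CPM in NCD replicate 3, where the muscle markers were, and under 0.275 CPM in the other 11 libraries.

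**Figure D5:**
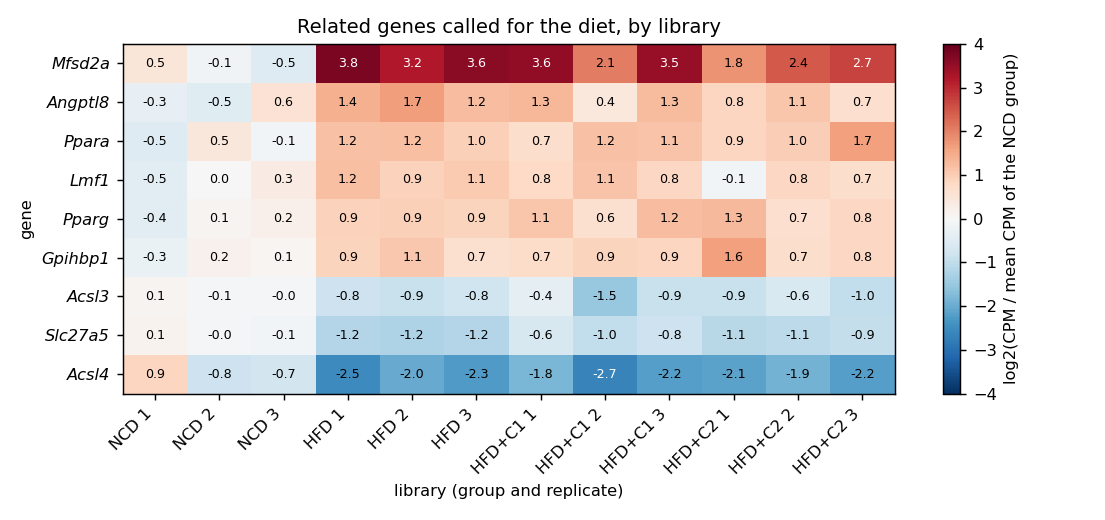
Heat map of log2(CPM / mean CPM of the NCD group) in each of the 12 libraries for the 9 related genes called between HFD and NCD, with the value printed in each cell. Mfsd2a is at 3.2 to 3.8 in HFD, at 2.1 to 3.6 in HFD+C1 and at 1.8 to 2.7 in HFD+C2, and Acsl4 is high in NCD replicate 1 (0.9) against -0.8 and -0.7 in the other NCD libraries.

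The members' patterns over the 12 libraries were compared with those of 10123 other genes by the root mean square difference in log2(CPM + 1), after centring each gene on its mean. Nearest to Cd36 were Stap1 (0.25) and Gm51475 (0.27), and nearest to Fabp2 were Lgals1 (0.33) and Gm51475 (0.35). Rbis (0.13) and Gm10288 (0.14) were nearest to Fabp1, and Usp25 (0.08) and Unc93b1 (0.09) to Slc27a2. For Vldlr they were Cnpy3 (0.09) and Rab1b (0.10), and for Lpl Plcg2 and Atp11a (both 0.22). Acsl1 was nearest to Ctnna1 (0.10), Slc27a4 to Ascc2 (0.08), Fabp5 to Fam47e (0.26) and Slc27a1 to Elac2 (0.21). Among the members themselves the closest pairs were Slc27a4 with Acsl1 (0.24), Slc27a1 with Slc27a2 (0.29), and, at the same distance of 0.38, Cd36 with Fabp2 and Slc27a2 with Acsl1. Slc27a2 with Slc27a4 and Slc27a2 with Vldlr followed (both 0.39). On the same scale the genes' own spreads were 0.23 for Slc27a4 and Acsl1, 0.33 for Slc27a2, 0.44 for Slc27a1, 0.62 for Vldlr, 0.87 for Cd36 and 0.96 for Fabp2. The distances among Slc27a4, Acsl1 and Slc27a2 were larger than the own spreads of these genes. Those pairs are thus near because the genes moved little, and the distances do not show a shared pattern. The added 1 compresses low levels, so a small distance is not an equal fold: Stap1 held 0 to 3 reads in the NCD libraries, and between HFD and NCD the log2 change was 2.92 for Gm51475 against 2.06 for Cd36, and 0.99 for Cnpy3 against 1.51 for Vldlr. All these distances come from the same 12 libraries and so share their depth and any library that stood apart.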

How the data were processed

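Total RNA from liver was extracted with an organic reagent and made into libraries with a microfluidic kit, per the labels' protocols. Trimmomatic 0.39, STAR 2.7, DESeq2 and the mm10 build are named per the submitters' processing notes; the annotation, strand use and filters are not given in the sources used here. The authors deposited 3 tables of read counts for 50559 genes. They are called normalized, but the values are whole numbers and the HFD columns are identical in the 3 tables (0 cells differ), so the counts were tested as raw counts. Rows that name no gene (4, holding 27.3% to 58.2% of reads) were left out of library sizes and tests.

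The 6 libraries of each comparison were fitted with edgeR 4.0.16 in R 4.3.3 (quasi-likelihood test), keeping genes that averaged 10 counts or more, with TMM scaling and Benjamini-Hochberg adjustment over all genes tested. A call is an adjusted p under 0.05, and 95% intervals use the moderated degrees of freedom. Levels are CPM with TMM over the 12 libraries. The floor is 3 counts, or 0.0997 to 0.633 CPM by library, and it covers counting error only. P-values measure the spread between the labelled replicates. No pair of libraries in a group agreed within counting noise.

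All 10 members are named, as are the related genes that were called and up to 2 genes nearest to each member in pattern; other genes were named after their values were seen. The members and lists were chosen with earlier results of these data known. Alternatives were plain scaling by the library total, median-ratio scaling, DESeq2 1.42.0, limma 3.58.1 voom with and without library weights, a filter at a mean of 50 counts, no filter, all 12 libraries in one fit, the replicate number as a block, and each library left out. For the related genes these were added after the data were seen. Same-numbered replicates did not deviate together in every pair (correlations from -0.22 to 0.39), so the numbers were not taken to pair the samples.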

Additional observations from a re-analysis of the deposited data

Results flagged for a closer look

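In HFD+C2 replicate 1, 47.1% of reads fell outside the gene counts, above the 31.9% to 32.9% of the HFD libraries, in reads that the comparisons do not use. The classes were 21.9% unmapped, 10.9% outside annotated features, 9.04% ambiguous and 5.17% mapped to several places. In this library Fabp1 and Fabp2 were at 23689.8 and 859.9 CPM, against 8406 and 8463 CPM and 243 and 244 CPM in the other HFD+C2 libraries. Fabp4 (57.1 against 26.1 and 10.3 CPM) and Fabp7 (13.2 against 5.52 and 3.98 CPM), further binding proteins, were also highest there. Slc27a4 and Slc27a1 were lowest there within the group, at 17.5 and 1.90 CPM. Whether the unassigned reads move these levels was not tested.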

How the results depend on the processing

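The number of members called between HFD and NCD was 2 and stayed at 2 or 3 in 8 of 9 other settings. With library weights limma voom called 5, in a fit that called 3211 genes over the whole table against 836. The number ran from 1 to 4 with 1 library left out, lowest without HFD replicate 1 and highest without NCD replicate 1. For C1 against HFD the count of 0 became 1 with no filter on low counts, and 0 to 1 with 1 library left out (1 without HFD replicate 2). For C2 against HFD it became 1 with no filter. For C1 against NCD the count of 2 became 4 with library weights and 3 with DESeq2, and 0 to 3 with 1 library left out. For C2 against NCD the count of 1 became 2 with plain library totals, DESeq2 or all 12 libraries in one fit, 3 with library weights or no filter, and 0 to 1 with 1 library left out.

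With the replicate number as a block, the count for C2 against NCD was 2, since Fabp2 passed (2.11, edgeR adjusted p 0.0265). Under the block, 2 values of C2 against HFD changed sign, Cd36 (-0.0087) and Fabp1 (-0.072), and the number of members called in the other 5 comparisons was as in the fits without it. Each library deviated most like its own number in 0 to 4 of 6 cases by comparison, as a hint from the data only.

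Directions that turned were all of members without a call. With plain library totals these were Slc27a4 between HFD and NCD (-0.071) and between C1 and NCD (-0.093), Cd36 under C2 (-0.040) and Lpl between C2 and NCD (-0.071). With voom they were Cd36 (-0.0097) and Fabp1 (-0.058) under C2. With library weights they were Slc27a1 for the diet (-0.030), Cd36 (-0.15), Fabp1 (-0.50) and Fabp2 (-0.46) under C2, and Fabp1 (-0.0018) and Acsl1 (0.050) between the compounds. With the filter raised to 50 counts they were Slc27a2 (0.0038) and Acsl1 (0.0012) between the compounds.

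Leaving out 1 library also turned some. For the diet Acsl1 ran from -0.34 to 0.031. Under C1 Fabp5 ran from -0.12 to 0.21 and Acsl1 from -0.029 to 0.22. Under C2 Cd36 ran from -0.14 to 0.23, Fabp1 from -0.57 to 0.36, Fabp2 from -0.53 to 0.65, Vldlr from -0.22 to 0.013 and Acsl1 from -0.17 to 0.21. Between the compounds Fabp1 ran from -0.14 to 0.80, Fabp2 from -0.069 to 1.11, Slc27a2 from -0.11 to 0.051 and Acsl1 from -0.21 to 0.13. Between C1 and NCD Slc27a4 ran from -0.012 to 0.23 and Acsl1 from -0.30 to 0.076. Between C2 and NCD Fabp5 ran from -0.51 to 0.36, Lpl from -0.081 to 0.51 and Acsl1 from -0.34 to 0.072. The cause was not tested.

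With 3 libraries a group and few reads for Vldlr and Slc27a1 in NCD (2 to 78 a library), small changes of these genes were not detectable at this depth. Plain library totals moved the median of all genes to -0.24 for the diet, -0.21 between C1 and NCD and -0.26 between C2 and NCD, so changes are relative to the TMM scale. Where a fit leaves 2 libraries in a group, the spread is pooled over both groups.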
